A study of Mus musculus with 4 samples.

Results

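The keratin genes of the mouse were described here across single cells of the digit. They were taken as every gene whose symbol is Krt followed by digits and at most 1 letter, which left out the keratin-associated protein genes (Krtap) and Krtdap. The rule found 53 of the 32285 genes listed, and all 53 had at least 1 UMI (unique molecular identifier, a tag that counts each captured RNA molecule once). The study amputated digits of adult wild-type FVB/NJ mice, 8 weeks old per the labels, through P2, the middle phalanx, a level at which the digit scars and does not regrow. P2 tissue was dissected at 12, 17 and 28 days post-amputation (dpa) and from unamputated digits, and live cells were sorted and made into 1 10x Chromium 3′ library per group. The labels give males and females as pooled, without their number, and no group had a second library, so no test was possible and no difference below has a replicate check.

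Keratins are the intermediate filament proteins of epithelial cells. A filament is built from pairs of an acidic type I and a basic type II keratin, and the genes of each type lie together in a cluster. Dividing basal cells of the epidermis make Krt5 and Krt14, and cells that leave the basal layer turn to Krt1 and Krt10 and, later, Krt2. Krt6a, Krt6b, Krt16 and Krt17 are made in hair follicles, nail bed and footpad, and appear in the epidermis at wound edges. Hair and nail are built from a separate set of hard keratins, which the keratin-associated proteins crosslink, and the inner root sheath around a growing hair makes its own set.

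Of the 53 genes, 26 type I genes and Krt222 lay on chromosome 11, and 25 type II genes and the type I gene Krt18 lay on chromosome 15 (GENCODE M21, GRCm38). The type I genes of chromosome 11 spanned chr11:99279959-100269871, and the type II genes chr15:101347444-102004482. In the 31-base words of the last 400 bases of their transcripts, where 3′ reads fall, 42 of 53 keratins shared none with another keratin. The highest shares were 12.97% of the words of Krt33a with Krt34 and 11.1% between Krt14 and Krt17, so counts in these genes may be in part exchanged.

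The 4 libraries held 8813 to 16045 barcodes and 92313847 to 197140774 UMIs, and 34949 cells passed the filters. Pairs of libraries shared 19 to 87 barcodes. The labels give pools of both sexes, but the 12 dpa library had 0.228 CPM (a gene's UMIs scaled to the same total in every library) summed over 4 Y-linked genes and 458 CPM of Xist, while the other libraries had 244 to 349 CPM and at most 0.154 CPM. Sex and time therefore cannot be told apart for the 12 dpa library. Clusters were made without keratin genes and named from other genes. Keratinocyte-like cells numbered 1502 in the unamputated library and 621, 682 and 1791 at 12, 17 and 28 dpa, or 14.4%, 9.54%, 8.61% and 17.7% of cells, and their median depth was 17421, 13867, 12517 and 9164 UMIs. Within them, all 8 listed fibroblast markers were detected in each library, with a summed level of 286, 793, 569 and 527 CPM in the same order. All 8 macrophage or monocyte markers were also detected, with 29.5, 21.7, 75.3 and 91.0 CPM, and all 7 vascular endothelial markers, with 6.94, 8.43, 11.4 and 10.9 CPM. Their part in the results was not tested.

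In keratinocyte-like cells, keratins held 2.63% of all UMIs in the unamputated library (exact 95% interval 2.63 to 2.64, counting error only), 2.84% at 12 dpa, 2.90% at 17 dpa and 2.66% at 28 dpa. The pool was carried by a small number of genes. By their highest level in any library, 6 keratins reached 1000 CPM, 8 lay between 100 and 1000 CPM, 10 between 10 and 100 CPM, 16 between 1 and 10 CPM, and 13 stayed under 1 CPM. Krt14, Krt10, Krt1 and Krt5 together made up 83.3% of keratin UMIs in the unamputated library and 88.5%, 87.4% and 82.3% at 12, 17 and 28 dpa. UMIs of type I genes outnumbered those of type II genes 1.52-fold in the unamputated library, 1.58-fold at 12 dpa, 1.60-fold at 17 dpa and 1.80-fold at 28 dpa.

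Each amputated library was compared with the unamputated one over genes that reached 10 CPM in one or both of the pair, and a gene was called when its CPM, after adding 1, differed at least 2-fold. At 12 dpa, 2 of 24 keratins tested were called higher, Krt25 and Krt71, where 0.476% of 9040 genes were. In the same library 8 were called lower, namely Krt2, Krt24, Krt31, Krt33a, Krt35, Krt75, Krt83 and Krt87, against 1.39% of all genes. At 17 dpa, 2 of 24 were called higher, Krt35 and Krt71 (0.63% of 9051 genes), and 7 lower (1.16% of all genes), which were Krt6a, Krt6b, Krt16, Krt31, Krt33a, Krt83 and Krt87. At 28 dpa, 7 of 24 were called higher (1.05% of 9084 genes), namely Krt24, Krt25, Krt28, Krt35, Krt71, Krt73 and Krt75, and 7 lower (2.33%), namely Krt6b, Krt16, Krt31, Krt33a, Krt79, Krt83 and Krt87. The median log2 ratio of the tested keratins was -0.38, -0.0039 and 0.022 at 12, 17 and 28 dpa, beside -0.16, -0.16 and -0.21 over all genes tested. Of the genes called lower, Krt31, Krt33a, Krt35, Krt75, Krt83 and Krt87 at 12 dpa, Krt6b, Krt33a and Krt83 at 17 dpa, and Krt6b, Krt31, Krt33a, Krt83 and Krt87 at 28 dpa passed the 10 CPM minimum only through the unamputated library, so that a higher level was not possible for them and their number is no evidence of a direction. The call of Krt71 at 17 dpa, at a log2 ratio of 1.003, ended in 5 alternatives, with 0.41 for the mean of CPM per cell, 0.95 with no doublets removed, 0.856 with a pseudocount of 5, 0.861 with stricter filters and 0.97 without a cluster of 16 cells described with the injury keratins. The call of Krt87 as lower at 17 dpa ended with a pseudocount of 5.

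**Figure D1:**
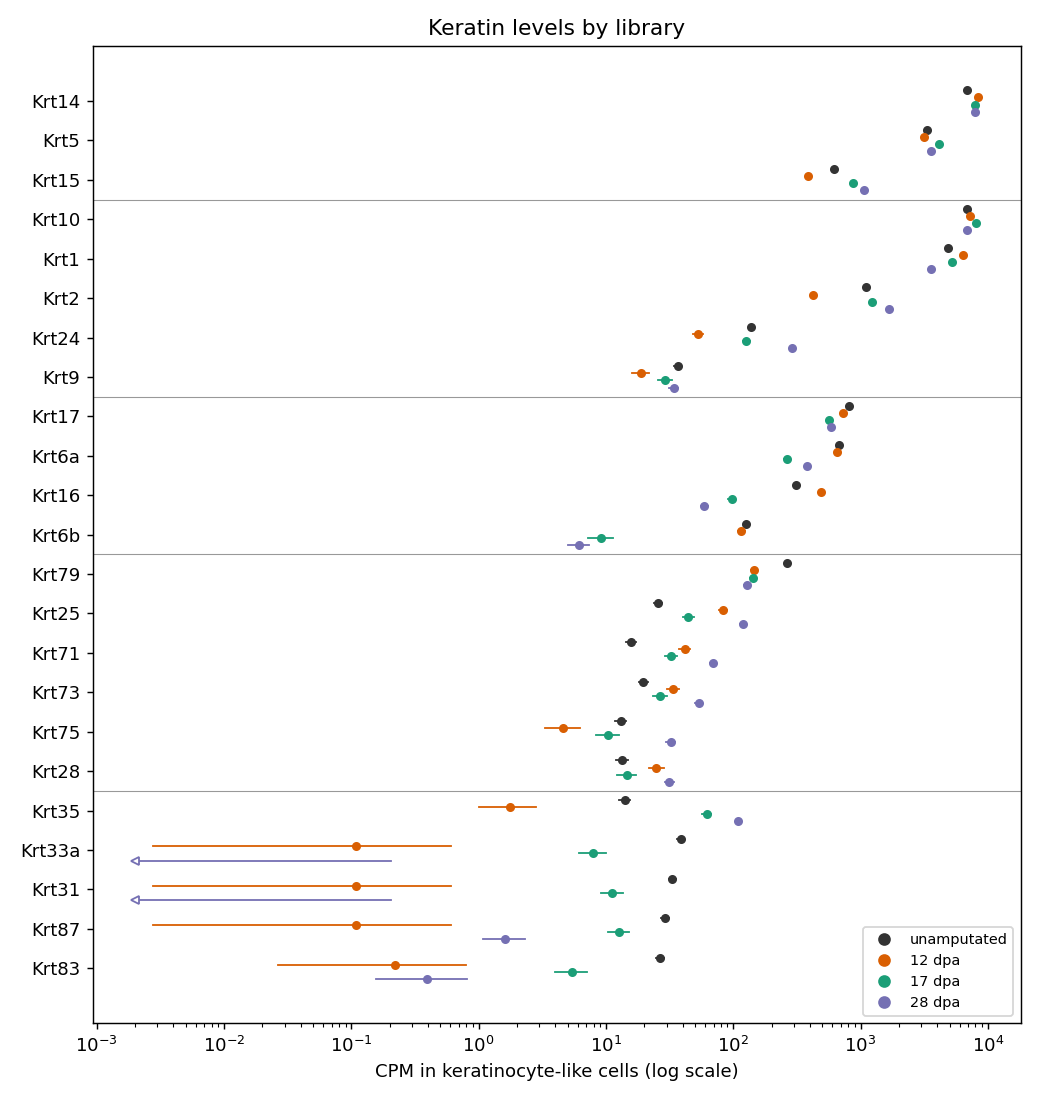
Level of 23 keratins in keratinocyte-like cells of each library, as CPM on a log scale, with exact Poisson 95% intervals as bars that cover counting error only and grey lines between basal, suprabasal, injury, follicle sheath and hard hair genes; open triangles at the left edge mark 0 UMIs and bars are cut there. Krt14 lies between 6918 and 8364 CPM in all 4 libraries, while Krt31 spans 33.2 CPM in the unamputated library to 0 UMIs at 28 dpa.

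Among the basal keratins, the filament pair itself moved little and Krt15 moved more. Krt14 measured 6918 CPM in the unamputated library and 8364, 7920 and 7934 CPM at 12, 17 and 28 dpa. Its type II partner Krt5 measured 3304, 3137, 4135 and 3554 CPM in that order. The 4 libraries thus lay within a narrow range for both genes. Krt15, a type I keratin of basal cells and of the follicle bulge, measured 622, 384, 874 and 1057 CPM, lowest at 12 dpa and highest at 28 dpa. At 28 dpa 51.4% of its UMIs lay in follicle-like cluster 11, which held 44, 11, 19 and 175 cells in the 4 libraries, and over 6 clusters with cells in every library it was higher than in the unamputated library in 3 and lower in 3. After thinning each cell to 2000 UMIs, cells with a Krt15 UMI were 35.0%, 26.7%, 42.8% and 34.0% of keratinocyte-like cells, so the share of cells and the CPM differed in their order and no order is read from the share. Without thinning the shares were 53.7%, 42.8%, 58.7% and 48.5%. In macrophage-like cells the thinned share was 0.654%, 0.088%, 0.725% and 2.56%, at median depths of 10481, 7823, 8509 and 7020 UMIs.

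Of 8 suprabasal keratins, the early pair Krt10 and Krt1 stayed abundant, and the later genes Krt2 and Krt24 were called lower at 12 dpa. Krt10 measured 6894, 7235, 8092 and 6823 CPM in the unamputated, 12, 17 and 28 dpa libraries. Krt1, its type II partner, measured 4830, 6415, 5203 and 3546 CPM, highest at 12 dpa and lowest at 28 dpa. Krt2, a type II keratin of the upper spinous and granular layers, measured 1107, 425, 1240 and 1672 CPM, so 12 dpa was the lowest library, with a log2 ratio of -1.38 (interval -1.43 to -1.33). Krt24, a type I keratin of differentiating keratinocytes, measured 138, 52.5, 127 and 287 CPM, again lowest at 12 dpa (log2 ratio -1.37) and highest at 28 dpa (1.06). The call at 28 dpa ended with no doublets removed, at 0.92, and with stricter cell filters, at 0.66. Krt2 was also found in fewer cells at 12 dpa. After thinning, 6.10% of keratinocyte-like cells had a Krt2 UMI at 12 dpa, against 17.8%, 18.5% and 21.3% in the unamputated, 17 and 28 dpa libraries. Before thinning the shares were 12.7% and 30.6%, 30.5% and 39.1%. The thinned share in macrophage-like cells was 1.23% at 12 dpa and 1.09%, 1.38% and 5.89% in the others. Krt9, the type I keratin of thick sole and palm skin, measured 36.5, 18.7, 29.0 and 34.1 CPM. Krt80, also listed as suprabasal, measured 26.2, 16.7, 40.2 and 27.3 CPM. Both were lowest at 12 dpa too, but stayed within 2-fold of the unamputated library.

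Krt2 and Krt24 lie in different gene clusters on different chromosomes and had their lowest level in the same library, so their RefSeq promoter windows (GRCm38.p6, 250 bases before to 50 bases after the start, both on the minus strand) are shown. The Krt2 window is chr15:101818120-101818419 and the Krt24 window chr11:99285213-99285512. Capitals mark AGATAA, the motif bound by GATA factors, which was found in the Krt2 window 199 bases before the start and on neither strand of the Krt24 window. The exact word TATAAA was found in neither window. Both hold the letters tatataag, which that word does not match, and variants of it were not searched.
Krt2: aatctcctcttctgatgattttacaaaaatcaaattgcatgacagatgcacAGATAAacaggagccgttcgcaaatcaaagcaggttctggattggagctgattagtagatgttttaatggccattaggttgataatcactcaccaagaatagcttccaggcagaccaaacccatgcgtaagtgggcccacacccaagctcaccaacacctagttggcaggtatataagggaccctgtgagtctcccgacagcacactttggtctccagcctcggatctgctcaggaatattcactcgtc
Krt24: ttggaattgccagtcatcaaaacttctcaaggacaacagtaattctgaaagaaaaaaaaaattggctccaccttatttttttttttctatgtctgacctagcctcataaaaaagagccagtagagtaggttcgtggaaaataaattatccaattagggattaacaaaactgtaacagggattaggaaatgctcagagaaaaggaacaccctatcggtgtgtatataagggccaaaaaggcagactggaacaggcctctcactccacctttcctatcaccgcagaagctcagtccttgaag
AGATAA, searched on both strands, occurred in 11.2% of 32851 mouse promoter windows of the same length.

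The 4 injury keratins together measured 1930, 1994, 931 and 1034 CPM in the unamputated, 12, 17 and 28 dpa libraries. Read as they stand, the unamputated and 12 dpa libraries were alike in sum and both lay above the later ones. Krt16 measured 309, 489, 97.3 and 59.3 CPM, highest at 12 dpa. Krt6b measured 126, 116, 9.10 and 6.16 CPM, and the earlier pair of libraries stood clear of the later pair. Krt6a measured 681, 656, 262 and 379 CPM, and Krt17 measured 814, 733, 562 and 590 CPM, with smaller differences.

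The level in the unamputated library rested on few cells. A cluster of 16 cells whose leading genes included the matrix proteases Mmp9, Mmp10 and Mmp13 held 13 cells of the unamputated library, 2 of the 12 dpa library, 1 of the 17 dpa library and none at 28 dpa. The 13 unamputated cells were 0.87% of that library's keratinocyte-like cells and gave 40.5% of its injury keratin UMIs, with 72.9% of Krt6b, 67.2% of Krt16, 44.1% of Krt6a and 22.4% of Krt17. In them Krt6a reached 11268 CPM and Krt16 7798 CPM. Without the cluster, the injury keratins summed to 1179, 1948, 882 and 1034 CPM, and the log2 ratio to the unamputated library became 0.72 at 12 dpa in place of 0.047, -0.42 at 17 dpa in place of -1.05, and -0.19 at 28 dpa in place of -0.90. Krt6b then measured 35.1 CPM in the unamputated library against 117 CPM at 12 dpa, and Krt16 104 against 481 CPM. The 12 dpa levels rested on few cells as well. Of 621 keratinocyte-like cells there, 13 held 90% of Krt6b UMIs and 54 held 90% of Krt16 UMIs. Without the cluster the calls of Krt16 as lower ended, with log2 ratios of -0.097 at 17 dpa and -0.80 at 28 dpa, as did that of Krt6a at 17 dpa, with -0.60. The share of cells was also highest at 12 dpa. After thinning, 15.5% (12.7 to 18.6) of keratinocyte-like cells had a Krt16 UMI at 12 dpa, against 5.69% (4.56 to 7.004), 4.48% and 4.56% in the unamputated, 17 and 28 dpa libraries. Before thinning these shares were 30.4%, 15.8%, 9.82% and 9.72%, and macrophage-like cells had thinned shares of 1.32%, 0.436%, 0.145% and 0.256%.

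Values were then read inside single clusters, since the mix of clusters differed between libraries. The basal-like cluster 1, for instance, held 17.6%, 22.4%, 12.2% and 4.80% of keratinocyte-like cells in the 4 libraries, while cluster 13, which had no name but a basal keratin pattern with Krt14 at 16345 CPM, held 2.80%, 3.70%, 8.06% and 14.7%. There were 6 clusters with at least 40 cells in every library, suprabasal-like cluster 0, basal-like cluster 1, follicle-like cluster 4, cycling cluster 6 and the unnamed clusters 3 and 9. Over 14 keratins with a mean of at least 20 CPM there, only Krt16 was higher at 12 dpa than in the unamputated library in all 6, where 5.45% of 6602 genes were. Its median log2 ratio over the clusters was 1.73, from 1.61 to 2.78. In suprabasal-like cluster 0, Krt16 measured 215 CPM unamputated and 729, 330 and 42.4 CPM at 12, 17 and 28 dpa. In basal-like cluster 1 it measured 16.4, 115, 9.76 and 5.89 CPM, and in cluster 9, led by Defb6, Cst6 and Klk7, 450, 1477, 230 and 490 CPM. The highest value in each of these clusters was at 12 dpa. In follicle-like cluster 4 it rested on 4 to 13 UMIs per library.

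Krt2 was the keratin that was lower at 12 dpa in all 6 clusters, where 18.5% of genes were, with a median log2 ratio of -1.65. In cluster 0 it measured 5784 CPM unamputated and 2225, 5823 and 9367 CPM at 12, 17 and 28 dpa, and in cycling cluster 6 it measured 392, 94.5, 652 and 429 CPM. At 12 dpa Krt2 was therefore lowest in both. Krt24 in cluster 0 measured 520, 177, 483 and 1142 CPM, and was lower at 12 dpa in 5 of 6 clusters. Krt6a was higher at 12 dpa in 5 of 6 and Krt17 in 5 of 6. In cluster 1 Krt17 measured 90.4, 459, 170 and 15.3 CPM, a single high library, and Krt6a measured 226, 666, 193 and 161 CPM.

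At 17 dpa, 2 of the 14 keratins were higher in all 6 clusters, Krt10 and Krt15 (7.09% of all genes were), and 0 of 14 were lower in all 6, against 23.5% of all genes. Krt15 in cluster 1 measured 741, 385, 1548 and 405 CPM. At 28 dpa, Krt9 and Krt24 were higher in all 6 clusters (9.12% of genes were) and Krt17 was lower in all 6 (27% of genes were), with a median log2 ratio of -1.69. Krt24 had a median log2 ratio of 1.25. For Krt9, clusters 3, 4 and 9 had at most 2 UMIs in any library, and its values rest on cluster 0, with 58.2, 101, 221 and 164 CPM, and cluster 1, with 1.30, 3.54, 0.976 and 49.4 CPM.

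**Figure D2:**
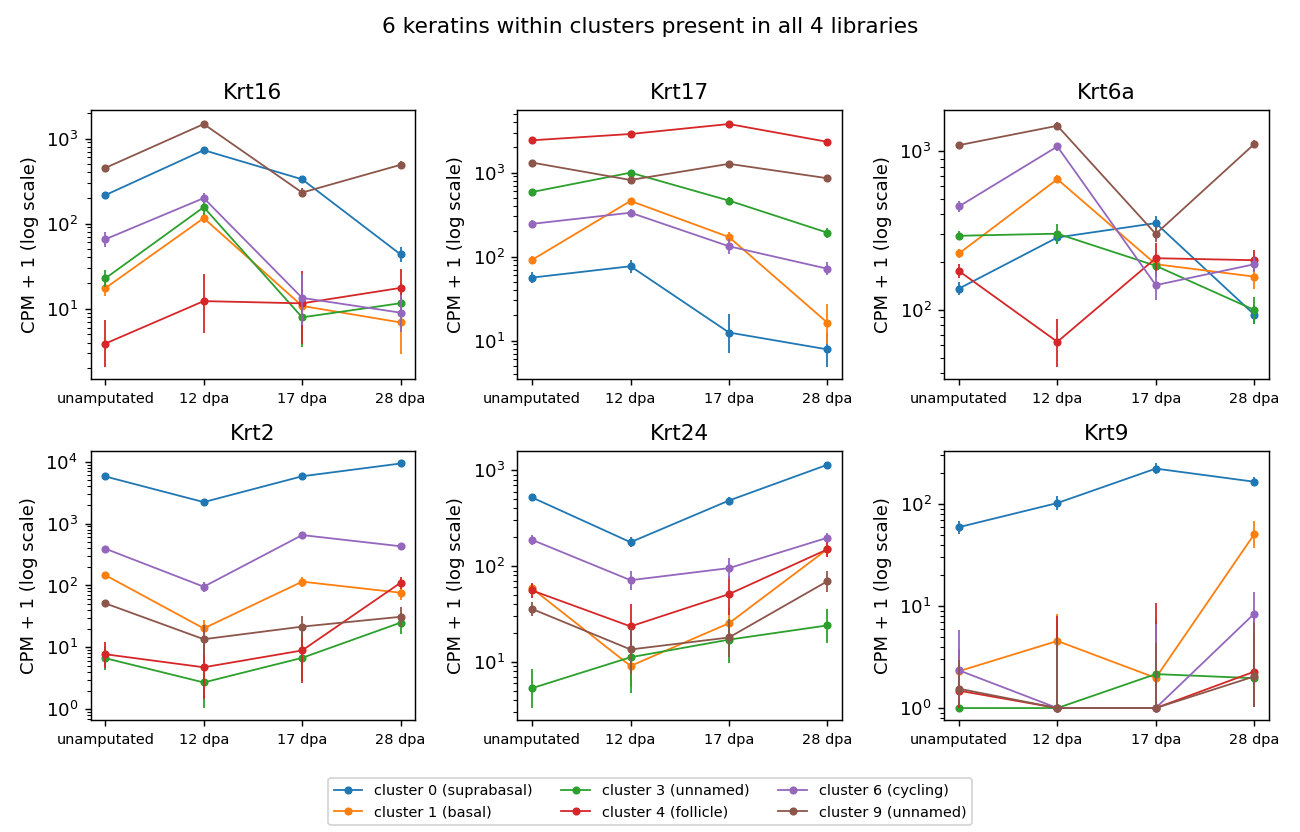
CPM + 1 on a log scale for Krt16, Krt17, Krt6a, Krt2, Krt24 and Krt9 in the 6 keratinocyte-like clusters with at least 40 cells in every library, 1 line per cluster, with exact Poisson 95% intervals as bars. Krt16 is above the unamputated value at 12 dpa in all 6 clusters and Krt2 is below it in all 6.

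Since keratins did not enter the clustering, their spread over the clusters was a separate readout. Pooled over libraries, Krt10 measured 29959 CPM in suprabasal-like cluster 0, 417 CPM in basal-like cluster 1 and 133 CPM in follicle-like cluster 4. Krt14 went the other way between the epidermal clusters, with 1070 CPM in cluster 0 and 12919 CPM in cluster 1. Keratins made up 5.64% of UMIs in cluster 0 and 2.18% in cluster 1, and 0.620% in hair matrix-like cluster 12, the lowest. Type I UMIs outnumbered type II UMIs 1.32-fold in cluster 0, 1.91-fold in cluster 1 and 2.73-fold in cluster 4. The follicle-like clusters 4 and 11 and cluster 16 (led by Tagln and Acta2) had Krt15 at 3178, 7960 and 3701 CPM and Krt17 at 2604, 3309 and 3978 CPM. Cluster 11 also held Krt6a at 3631 CPM with Krt16 at 188 CPM and Krt6b at 0.582 CPM, whereas in cluster 9 Krt6b reached 216 CPM beside 1013 CPM of Krt6a. Krt6a and Krt6b, a pair of close relatives, thus had different cluster patterns. Krt79, a keratin of the upper follicle and sebaceous duct, was found mainly in clusters 9, 11 and 14. In cluster 9 it measured 1448, 1025, 1024 and 1341 CPM in the 4 libraries, and in follicle-like cluster 11 it measured 1593, 1277, 418 and 251 CPM. In cluster 14, with 12 to 39 cells per library, it measured 2226, 178, 42.5 and 1192 CPM, so the order of the clusters differed between libraries. In whole keratinocyte-like cells it measured 266, 144, 142 and 128 CPM in the 4 libraries, lowest at 28 dpa. With stricter filters its log2 ratio at 12 dpa turned from -0.88 to 0.35, and with the mean of CPM per cell the call at 28 dpa ended (-0.77). Within the 6 clusters read across libraries it was higher at 28 dpa than in the unamputated library in 5 of 6.

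**Figure D3:**
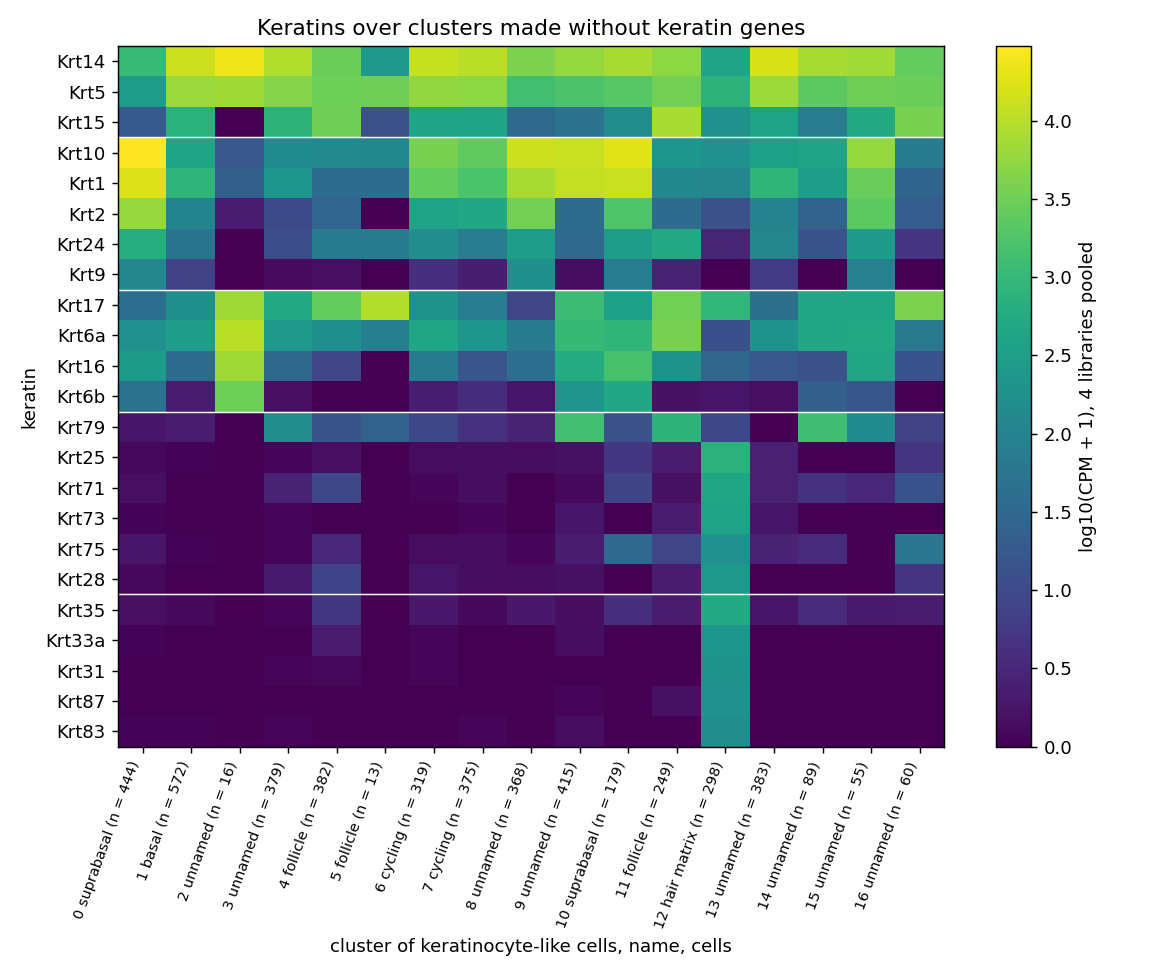
log10(CPM + 1) of 23 keratins, rows, in 17 clusters of keratinocyte-like cells, columns, with the 4 libraries pooled and the number of cells under each column; white lines part the rows into basal, suprabasal, injury, follicle sheath and hard hair genes. The last 2 blocks, apart from Krt79 and Krt75, are high in cluster 12 alone, and the injury keratins are all high in the 16 cells of cluster 2.

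The inner root sheath keratins were found in hair matrix-like cluster 12 and 4 of them were called higher at 28 dpa. The call of Krt28 ended with a pseudocount of 5 (log2 ratio 0.99) and with stricter filters (0.91), and that of Krt73 with the mean of CPM per cell (0.86) and stricter filters (0.96). Krt25, a type I keratin of the inner root sheath, measured 25.8 CPM in keratinocyte-like cells of the unamputated library and 82.5, 44.5 and 118 CPM at 12, 17 and 28 dpa. Krt71, a type II keratin of the same sheath, measured 15.7, 41.5, 32.5 and 69.3 CPM. Krt73 measured 19.7, 33.8, 26.8 and 53.6 CPM, and Krt28 measured 13.4, 24.95, 14.6 and 31.6 CPM, both of the same sheath. All 4 were lowest in the unamputated library and highest at 28 dpa in these sums, although Krt73 at 17 dpa was below the unamputated library with the mean of CPM per cell (log2 ratio -0.24). Within cluster 12, with 103, 57, 23 and 115 cells, Krt25 measured 285, 875, 1045 and 1481 CPM and Krt71 measured 165, 429, 747 and 853 CPM, so the unamputated library was again lowest and 28 dpa highest, while 17 dpa lay above 12 dpa there and below it in all keratinocyte-like cells. These levels came from few cells. For Krt25, 90% of the UMIs lay in 7, 6, 2 and 16 cells of the 4 libraries. Krt75, the type II keratin of the companion layer, measured 13.1, 4.60, 10.3 and 32.2 CPM, lowest at 12 dpa. Its call as lower at 12 dpa ended with a pseudocount of 5.

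Promoter windows of these 4 sheath keratins and of the hard keratin Krt31 are shown, because the sheath genes lie in both gene clusters and had their highest level in the same library. All are on the minus strand, at chr11:99322902-99323201 for Krt25, chr11:99374854-99375153 for Krt28, chr15:101743048-101743347 for Krt71, chr15:101802311-101802610 for Krt73 and chr11:100050502-100050801 for Krt31. Capitals mark TATAAA, the core of the TATA box, where it began 55 to 6 bases before the start on the gene's own strand, and AGATAA on the same strand; no 2 matches overlapped.
Krt25: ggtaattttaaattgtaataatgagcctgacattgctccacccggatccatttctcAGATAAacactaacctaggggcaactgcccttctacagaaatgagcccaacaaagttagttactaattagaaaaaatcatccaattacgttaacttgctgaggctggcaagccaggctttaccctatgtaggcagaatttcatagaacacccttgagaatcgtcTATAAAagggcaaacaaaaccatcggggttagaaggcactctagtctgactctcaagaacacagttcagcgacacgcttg
Krt28: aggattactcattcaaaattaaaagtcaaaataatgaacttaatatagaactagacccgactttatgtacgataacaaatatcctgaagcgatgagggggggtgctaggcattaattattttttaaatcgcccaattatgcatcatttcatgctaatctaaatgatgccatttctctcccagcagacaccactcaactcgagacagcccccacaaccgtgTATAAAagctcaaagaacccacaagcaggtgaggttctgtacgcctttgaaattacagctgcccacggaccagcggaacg
Krt71: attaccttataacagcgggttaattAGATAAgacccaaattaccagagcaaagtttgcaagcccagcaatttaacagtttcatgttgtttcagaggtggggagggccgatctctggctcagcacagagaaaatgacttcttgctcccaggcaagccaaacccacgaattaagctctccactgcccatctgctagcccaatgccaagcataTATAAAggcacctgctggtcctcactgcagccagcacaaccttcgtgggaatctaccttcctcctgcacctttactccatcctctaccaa
Krt73: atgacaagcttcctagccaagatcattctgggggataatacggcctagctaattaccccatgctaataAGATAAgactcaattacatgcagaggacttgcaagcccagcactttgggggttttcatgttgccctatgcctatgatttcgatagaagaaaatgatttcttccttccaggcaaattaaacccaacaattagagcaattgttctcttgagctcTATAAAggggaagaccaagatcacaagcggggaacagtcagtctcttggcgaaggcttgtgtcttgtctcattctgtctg
Krt31: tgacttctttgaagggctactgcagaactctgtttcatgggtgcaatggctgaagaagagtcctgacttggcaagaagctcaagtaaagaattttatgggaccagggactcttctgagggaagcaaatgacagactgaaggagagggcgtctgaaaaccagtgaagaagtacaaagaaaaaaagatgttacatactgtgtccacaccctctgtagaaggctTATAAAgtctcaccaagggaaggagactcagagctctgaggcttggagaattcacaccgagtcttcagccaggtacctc
TATAAA began 30 bases before the start in Krt25, Krt28 and Krt73, 29 bases before it in Krt31 and 40 bases before it in Krt71. AGATAA began 194, 225 and 182 bases before the start of Krt25, Krt71 and Krt73. Windows were found for 36 keratins, Krt13 with 2, and 15 of the 37 windows held TATAAA at that distance, or 40.5%, against 2.76% of 32851 windows. By role these were 6 of 9 follicle sheath genes, 5 of 9 hard hair genes, 1 of 6 suprabasal, 1 of 5 simple, 1 of 2 mucosal, 1 of 3 other and 0 of 2 basal genes. The distance was set after the matches had been seen. Over the whole window and on either strand, TATAAA was found in 51.4% of keratin windows and 13.6% of all windows. AGATAA on either strand was found in 5 of the 9 sheath genes in 0 of the 9 hard hair genes, in 2 of 6 suprabasal, 2 of 5 simple and 1 of 2 mucosal genes, and in 27.03% of all keratin windows. CTTTGA, a TCF/LEF motif, was found in 24.3% of keratin windows and 16.003% of all windows, and TGANTCA, the AP-1 motif, in 5.41% and 7.81%. Only exact matches were counted, and a match of letters is a description of the window.

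Hard hair and nail keratins rested on few cells. Together the 15 genes measured 158, 4.82, 121 and 123 CPM in the unamputated, 12, 17 and 28 dpa libraries, so 12 dpa was 32.9-fold lower than the unamputated library. Krt31, a type I keratin of the hair cortex, had 931 UMIs (33.2 CPM) in the unamputated library, 1 UMI at 12 dpa, 100 UMIs (11.2 CPM) at 17 dpa and 0 UMIs at 28 dpa. With a floor of 3 counts in the library, the 28 dpa level was at least 197-fold lower than in the unamputated library. The exact counting interval reached down to 160-fold. The single UMI at 12 dpa gives a 303-fold lower level with a counting interval of 54.2 to 11976. Krt33a, also of the cortex, measured 38.6, 0.109, 7.87 and 0 CPM, Krt83 26.8, 0.219, 5.40 and 0.392 CPM, and Krt87 28.9, 0.109, 12.7 and 1.62 CPM. Each of these 4 genes was highest in the unamputated library, lower at 17 dpa and under 2 CPM at 12 and 28 dpa. In each of the unamputated and 17 dpa libraries, 90% of the UMIs of each of these 4 genes lay in 2 cells, and 1 cell held 50.6% of all hard keratin UMIs of the unamputated library.

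Krt35, a type I hard keratin made low in the hair bulb, had another order. It measured 14.1, 1.75, 61.8 and 110 CPM in the 4 libraries, highest at 28 dpa, where Krt31 was at 0 UMIs. In cluster 12 it measured 153, 17.4, 1449 and 1364 CPM. Its UMIs were less concentrated, with 90% of them in 12 cells of the unamputated library, 4 at 17 dpa and 20 at 28 dpa. Cells with at least 20 UMIs of hard keratins numbered 9, 0, 6 and 22, and cells with at least 20 UMIs of the 7 inner root sheath keratins numbered 8, 11, 4 and 25. A single cell, at 17 dpa, met both limits. At 12 dpa, 11 sheath cells were thus found beside 0 hard keratin cells. Other hard keratins were low. Krt86 reached 6.73 CPM, Krt84 5.40 CPM and Krt81 4.74 CPM in their highest library, and Krt40 was the only keratin at 0 UMIs in keratinocyte-like cells of all 4 libraries.

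Simple keratins, which line ducts and glands, were near the bottom of the range in keratinocyte-like cells, with a sum of 11.3, 19.0, 21.1 and 22.6 CPM over 6 genes. With libraries pooled, 4 of these had their highest level in cluster 14, led by Chrm3 and Esrrg. There Krt23 measured 135 CPM, Krt18 106 CPM, Krt8 93.5 CPM and Krt19 87.5 CPM. The cluster had 89 cells, or 17, 12, 21 and 39 in the 4 libraries, and was not read by library here. Chrm3, a muscarinic acetylcholine receptor, is found in secretory glands, but only 2 of 5 listed sweat gland markers passed there, and the cluster was given no name. Krt8 and Krt18, partners in simple epithelia, were at most 5.82 and 2.51 CPM in other clusters of over 100 cells. The 3 mucosal genes Krt4, Krt13 and Krt76 summed to at most 0.438 CPM.

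Partners were compared cell by cell after thinning. Both Krt5 and Krt14 were seen in 67.4%, 70.8%, 73.4% and 73.0% of keratinocyte-like cells of the 4 libraries, and both Krt1 and Krt10 in 34.6%, 37.7%, 39.7% and 36.2%. Krt6a and Krt16 occurred together in 3.70%, 8.90%, 2.39% and 2.65% of cells, highest at 12 dpa. Krt14 with Krt10, a basal and a suprabasal keratin, were seen together in 28.2% (25.9 to 30.6) of unamputated cells and in 33.1%, 33.6% and 37.9% (35.6 to 40.2) at 12, 17 and 28 dpa. As a background for these shares, macrophage-like cells had a thinned Krt14 share of 5.34%, 11.6%, 6.74% and 13.8% and a Krt10 share of 9.05%, 12.9%, 6.88% and 19.7%.

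Genes that work with keratins were counted by the same rule. Of 18 desmosome and plakin genes that anchor keratin filaments, 16 were tested and 0 were called in any of the 3 comparisons, where 0.476% to 1.05% of all genes were called higher and 1.16% to 2.33% lower. Their sum was 5601, 4702, 5135 and 5060 CPM, and Dsg3, a cadherin of basal desmosomes, measured 252, 222, 198 and 185 CPM. Of 24 genes of injured epidermis, 14 were tested, 0 were called higher, and 7, 6 and 10 were called lower at 12, 17 and 28 dpa, against 1.39%, 1.16% and 2.33% of all genes. Genes that passed the minimum only through the unamputated library were not set apart here. The part of the Mmp10-led cluster in these calls was not tested. In this list Stfa3, a stefin protease inhibitor, measured 273, 509, 265 and 40.02 CPM, and Sprr1a, a cornified envelope precursor, measured 52.7, 12.4, 36.4 and 26.8 CPM. Of 57 keratin-associated protein genes 3 reached the 10 CPM minimum, which at 12 and 28 dpa they could do only through the unamputated library, so that only lower calls were possible there. Krtap8-1 measured 103, 0, 32.1 and 0.224 CPM.

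Keratins were also counted in the other cell classes, which should lack most of them. The summed keratin level was 77.8 to 1254 CPM there, against 26342 to 29018 CPM in keratinocyte-like cells. In every class with at least 50 cells at 28 dpa it was highest in that library. Macrophage-like cells had 140, 216.5, 133 and 321 CPM and vascular endothelial-like cells 138, 227.7, 137 and 427 CPM. The ratio of Krt10 to Krt1 UMIs in macrophage-like cells was 1.33, 1.10, 1.66 and 2.18, beside 1.43, 1.13, 1.56 and 1.92 in keratinocyte-like cells, with counting intervals that overlapped except at 28 dpa. In fibroblast-like cells it was 3.11 (2.64 to 3.67), 1.75 (1.43 to 2.16), 4.28 (3.76 to 4.89) and 3.88 (3.58 to 4.22), and in tenocyte-like cells 2.48, 1.62, 2.91 and 3.82. The counting intervals of fibroblast-like and keratinocyte-like cells did not overlap in any of the 4 libraries. The ratio of Krt14 to Krt5 was 2.54, 2.08, 2.09 and 2.12 in fibroblast-like cells and 2.09, 2.67, 1.92 and 2.23 in keratinocyte-like cells.

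A few keratins were higher in clusters of other classes than in keratinocyte-like cells. These genes were chosen after their values had been seen, as those with at least 10 UMIs in a cluster and a counting interval above that of keratinocyte-like cells of the same library. Krt83, listed above as a hard hair keratin, measured 63.4 CPM (55.6 to 71.9) in the neutrophil-like cluster 4 of the unamputated library and 92.5 CPM (76.1 to 111) at 17 dpa. That cluster was led by Camp, Ngp, Lcn2 and Ltf, granule genes of maturing neutrophils, and had 0 cells in the 12 and 28 dpa libraries. Krt83 was seen in 21.7% and 29.6% of its cells, at median depths of 6476 and 4851 UMIs, and in 0.150% and 0% of the macrophage-like cluster 17 at 11137 and 8647 UMIs. Its hair companions Krt31 and Krt33a had 0 UMIs in the 517 and 206 cells of cluster 4, which, taking 3 counts as the limit, allows up to 0.580% and 1.46% of cells with a UMI. Krt81 measured 23.96 and 57.0 CPM there, and Krt83 also appeared in neutrophil-like cluster 21 at 28 dpa with 45.0 CPM (23.3 to 78.7), on 12 UMIs, and in T or NK-like cells at 4.89, 16.7, 31.6 and 23.7 CPM, on 5 to 15 UMIs.

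Krt80, a type II keratin of many epithelia, was found in dendritic-like cells near the mean level of all keratinocyte-like cells, and in 1 other myeloid cluster. Dendritic-like cells had 30.03, 24.4, 38.1 and 30.1 CPM, beside 26.2, 16.7, 40.2 and 27.3 CPM in keratinocyte-like cells, and the intervals overlapped in every library. Keratinocyte-like cells were a mix. In the clustering of all cells, their cluster 12, led by Cst6 and Calm4, had 59.0, 39.6, 84.8 and 51.5 CPM. Their cluster 5 had 2.41, 3.71, 3.24 and 9.50 CPM. Dendritic-like cells lay below that cluster 12 in each library, with intervals apart in the unamputated and 17 dpa libraries. The macrophage or monocyte-like cluster 0, led by Plac8 and Ly6c2, had 25.6, 18.1, 54.0 and 65.2 CPM, while T or NK-like cells had 0 UMIs in all 4 libraries. At 28 dpa the interval of this cluster 0 (38.0 to 104) lay above that of keratinocyte-like cells (24.9 to 29.8). All macrophage or monocyte-like cells together had 11.05, 8.62, 11.04 and 6.42 CPM, below keratinocyte-like cells in each library. Among dendritic-like cells 22.8% of the unamputated library had a Krt80 UMI at a median of 11148 UMIs, against 0% of the endothelial-like cluster 3 at 10788 UMIs. Krt19, a type I keratin of simple epithelia, was highest in cluster 24, 882 cells led by Fgl2, Itih5, Foxd1 and Stra6 that were given no class. It measured 47.5, 105 and 185 CPM in the unamputated, 17 and 28 dpa libraries, and the 3 intervals did not overlap. The cluster had 34 cells at 12 dpa, which was not read. Krt19 was in 17.0%, 28.6% and 34.5% of its cells, at median depths of 13762, 8924 and 6114 UMIs, and in 0%, 0.149% and 0.382% of cells of macrophage-like cluster 17. Krt82 measured 10.4, 7.78 and 2.62 CPM in the bone or cartilage-like cluster of the unamputated, 17 and 28 dpa libraries and at most 0.112 CPM in keratinocyte-like cells. Krt222, a keratin-related gene, measured 3.898, 3.31, 4.98 and 2.66 CPM in vascular endothelial-like cells and at most 0.562 CPM in keratinocyte-like cells. T or NK-like cells reached 14.8 CPM at 12 dpa, on 8 UMIs, and B-like cells 9.64 CPM at 17 dpa, on 4 UMIs.

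**Figure D4:**
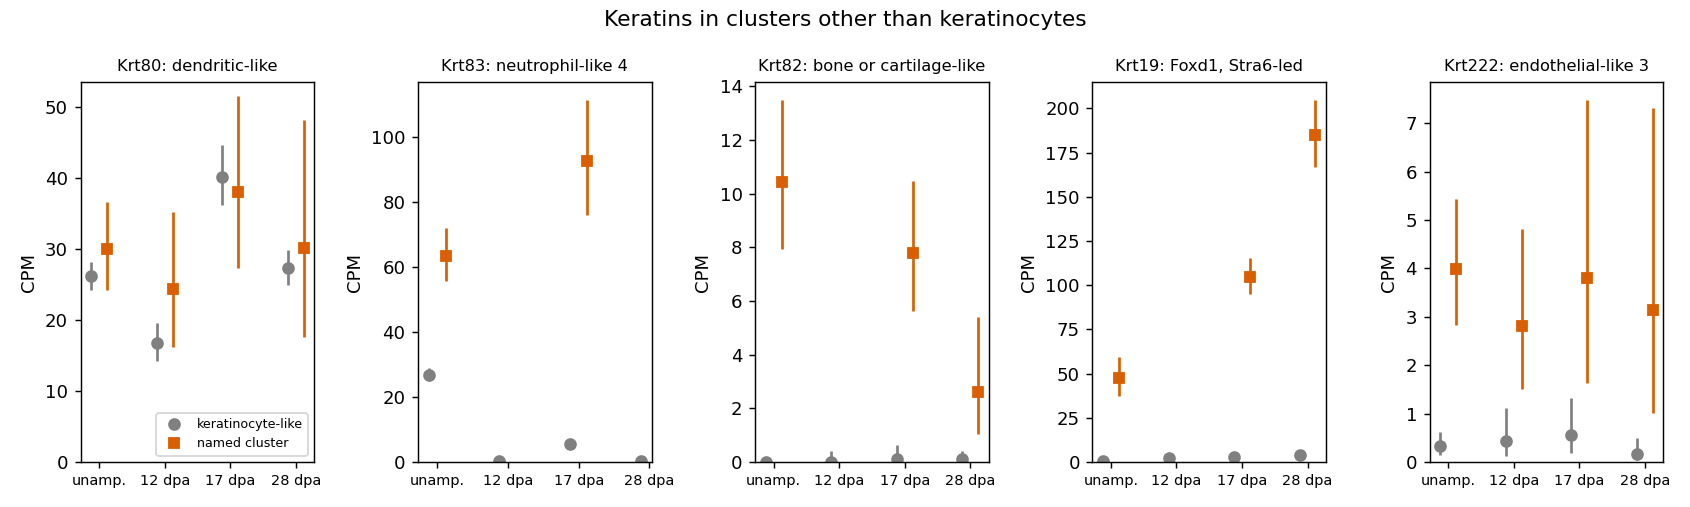
CPM of Krt80, Krt83, Krt82, Krt19 and Krt222 in keratinocyte-like cells (grey circles) and in 1 other cluster each (orange squares) by library, with exact Poisson 95% intervals as bars; clusters of fewer than 50 cells in a library have no square. Krt19 is at 47.5 CPM or more in its cluster in each library shown and at most 3.81 CPM in keratinocyte-like cells.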

How the data were processed

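Per the labels' protocols, dissected P2 tissue was digested with trypsin and collagenase I, and live cells were sorted and captured with 10x Chromium 3′ version 3 chemistry. The deposited values were whole-number UMI counts per gene and cell, made by the authors with Cell Ranger 7.1.0 per the file headers, on mm10 per the submitters' processing notes. Barcodes were kept from 500 genes and 1000 UMIs upwards, with mitochondrial UMIs of no more than 10%. The highest Scrublet scores were removed at 0.8% per 1000 barcodes, which took 7.05% to 12.8% of barcodes, where its automatic cut marked 1.79% to 4.07%.

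All 4 libraries were clustered together in scanpy 1.11.5 (2000 variable genes, 30 components, 15 neighbours, Leiden resolution 1), leaving out keratins, Krtap genes, the 2 other gene lists, sex-linked and mitochondrial genes. Keratinocyte-like cells were clustered again at resolution 0.8. A name needed 3 markers, each in 25% of cells at 2 times the level in all cells, and no more markers of another class among the 10 leading genes. This scoring was set after the clusters had been seen, as were the 6 clusters read across libraries (at least 40 cells in each).

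UMIs were summed per library and class, given as CPM, and compared as log2 ratios of CPM + 1. Intervals are exact Poisson or Clopper-Pearson at 95% and cover counting error only. Genes described in each library had at least 50 CPM in keratinocyte-like cells, or 200 CPM in a cluster of at least 50 cells, which 23 keratins met. Of the other 30, the highest was Krt80 with 40.2 CPM, and those given here were chosen after their values were seen. Members and gene lists were chosen with earlier results of these data known. Krt74 and Krt85, named in the lists, were not analysed here. Alternatives covered cell filters, doublets, resolution, keratins in clustering, scaling, averaging, the pseudocount and the CPM minimum.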

Additional observations from a re-analysis of the deposited data

Results flagged for a closer look

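Some keratins differed from the unamputated library at least 2-fold one way in one keratinocyte-like cluster and at least 2-fold the other way in another, and these differences were not tested. The search covered clusters with at least 20 cells in both libraries and 20 UMIs and 100 CPM in the higher. Of 10 such results, 7 have the low-depth suprabasal-like cluster 10 on one side, with a median of 2525 UMIs per cell. Krt6a at 12 dpa had a log2 ratio of 2.28 in cluster 10 and -1.48 in follicle-like cluster 4. At 17 dpa it had 1.37 in suprabasal-like cluster 0 and -4.24 in cluster 10. Krt9 at 17 dpa had 1.91 in cluster 0 and -5.35 in cluster 8, an unnamed cluster led by Mt4 and Mycl, where it measured 347 CPM in the unamputated library and 7.53 CPM at 17 dpa. At 28 dpa Krt9 had 1.48 in cluster 0 and -3.28 in cluster 8. Krt15 at 17 dpa had 1.53 in cycling cluster 6 and -4.74 in cluster 10, and at 28 dpa 1.63 in cluster 9 and -2.81 in cluster 10. Krt16 at 17 dpa had 3.27 in hair matrix-like cluster 12 and -5.41 in cluster 10, and at 28 dpa 1.91 in follicle-like cluster 11 and -3.27 in cluster 10. Krt2 at 28 dpa had 3.84 in follicle-like cluster 4, from 6.73 to 109 CPM, and -1.38 in cycling cluster 7. Krt17 at 28 dpa had 2.09 in cluster 10 and -1.78 in cycling cluster 6. In cluster 10 at 17 dpa, the injury keratins together had 9 UMIs (93.5 CPM) in 31 cells, and Krt15 measured 10.4 CPM. The ratios of Krt6a, Krt15 and Krt16 there rest on very few UMIs.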

How the results depend on the processing

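No paired analysis was possible because each group held 1 library. Of 552 alternative values of the 23 keratins, 538 kept their direction, 350 within the main value's counting interval as carried to the log2 scale of CPM + 1 and 188 outside it, and 14 reversed. The pooled count does not stand for each alternative. Of 69 values each, 69 stayed within the interval with resolution 2, 67 with CPM over UMIs of other genes and 65 with keratins in clustering. Fewer did with a pseudocount of 5 (48), without the Mmp10-led cluster (40) and with no doublets removed (39). Only 14 did with the mean of CPM per cell and 8 with stricter filters. With the mean of CPM per cell, the log2 ratio at 12 dpa became -0.11 for Krt10, 0.11 for Krt17, 0.33 for Krt6a and 0.89 for Krt6b, that at 17 dpa became -0.20 for Krt2 and -0.24 for Krt73, and Krt6a at 28 dpa became 0.30. With stricter cell filters, Krt17 and Krt79 at 12 dpa became 0.19 and 0.35, and Krt2 at 17 dpa -0.12. With no doublets removed, Krt75 at 17 dpa became 0.12. Without the Mmp10-led cluster, an alternative chosen after seeing the data, Krt17, Krt6a and Krt6b at 12 dpa became 0.13, 0.70 and 1.71.

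The injury keratin sum at 12, 17 and 28 dpa had log2 ratios of 0.44, -0.76 and -0.080 with the mean per cell, 0.016, -0.84 and -0.75 with no doublets removed, and 0.72, -0.42 and -0.19 without the Mmp10-led cluster. With stricter filters it was -1.31 at 17 dpa and -1.51 at 28 dpa. The keratin share of UMIs in the unamputated, 12, 17 and 28 dpa libraries was 2.43%, 2.61%, 2.63% and 2.58% with the mean per cell, 2.44%, 2.59%, 2.58% and 2.39% with no doublets removed, and 2.55%, 3.01%, 2.78% and 2.51% with stricter filters. It was 2.54% in the unamputated library without the Mmp10-led cluster.

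Keratins called higher at 12 dpa numbered 5 with the mean per cell, 4 with no CPM minimum and 4 without the Mmp10-led cluster, in place of 2. At 17 dpa they numbered 4 with the mean per cell, 7 with no minimum, and 1 with no doublets removed, with a pseudocount of 5 or without the Mmp10-led cluster, in place of 2. At 28 dpa they numbered 11 with no minimum, 6 with a pseudocount of 5 and 4 with stricter filters, in place of 7. Keratins called lower at 12 dpa numbered 6 with the mean per cell, 7 with a pseudocount of 5, 9 with stricter filters and 12 with no minimum, in place of 8. At 17 dpa, in place of 7, they numbered 4, 6, 9 and 8 in the same order, and 5 without the Mmp10-led cluster. At 28 dpa, in place of 7, they numbered 4 with the mean per cell, 11 with stricter filters, 10 with no minimum and 6 without the Mmp10-led cluster. Over these alternatives 22 to 28 keratins were tested, or 48 to 52 with no minimum, and 0.310% to 1.58% of all genes were called higher and 0.63% to 4.33% lower. The cause of these shifts was not tested. With 1 library per group, counting intervals do not hold the spread between animals, and the hair keratins rest on a few cells.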
